A study of Homo sapiens with 6 samples.

Results

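The genes described here act in the interferon response and in the sensing of foreign or misplaced RNA and DNA. They are 57 genes from a list drawn up by function, grouped by role into 6 sensors, 5 adaptors and kinases, 4 enzymes of RNA editing, RNA interference or nucleotide control, 6 interferon receptors and receptor kinases, 6 transcription factors and 30 induced effectors. Of these, 52 had a row among the 15585 genes of the deposited table and 46 were tested among 11844 genes. Of the rows, 51 carried the listed name, and MB21D1 was found under its current symbol CGAS. The cells were U2OS, an established human osteosarcoma line, transfected for 48 h either with control siRNA (siCTR, 3 libraries) or with siRNA against LSD1 (siLSD1, 3 libraries). The groups share no other named treatment or allele, the results are those of 1 cell line, which LSD1 siRNA was used is not named in the labels, and no source says whether the 3 libraries of a group came from separate cultures, so the p-values measure only the spread between these libraries. LSD1, encoded by KDM1A, removes methyl groups from lysine 4 of histone H3, and total RNA was sequenced after its knockdown.

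Cells recognise RNA with unusual ends or paired strands through the helicases RIG-I (DDX58) and MDA5 (IFIH1), which signal through MAVS, and cytosolic DNA through cGAS (MB21D1), which signals through STING (TMEM173). Both routes activate the kinases TBK1 and IKKε (IKBKE) and the transcription factor IRF3, and lead to secretion of interferons. Interferons bind receptors coupled to JAK1 and TYK2, and a complex that contains STAT2 and IRF9 then switches on effector genes through the interferon-stimulated response element (ISRE). In other cell types, loss of LSD1 has been described to raise paired-strand RNA and interferon.

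The libraries held 12513511 to 13561344 counted reads. KDM1A was at 489 ± 16.4 CPM (read counts scaled to library size by TMM; SD, n = 3) in the control libraries against 90.4 ± 6.92 CPM (SD, n = 3) after knockdown, which is −2.44 on the log2 scale (adjusted p = 2.27e-07, edgeR with Benjamini-Hochberg adjustment). Of the markers chosen for the labelled cell type, VIM averaged 426 FPKM and ALPL 128 FPKM, whereas RUNX2 and SPARC had at most 4 reads in any library. The leukocyte genes PTPRC and LYZ had at most 1 read in any library, and of the 6 genes of that list with a row, CD68 averaged 3.68 FPKM. Of 4 epithelial genes, KRT8 averaged 429 FPKM and KRT18 503 FPKM, against 1.25 FPKM for EPCAM and 1.67 FPKM for CDH1, and none of the 4 had an adjusted p under 0.05. In bulk RNA, fewer cells of a type and less RNA per cell cannot be told apart. The libraries differed in base composition and gene length in ways the groups did not explain. Across the tested genes, the deviation of a library from the mean of all libraries correlated with GC content by r = 0.39 in siCTR replicate 1, r = 0.48 in siLSD1 replicate 1 and r = −0.57 in siLSD1 replicate 3, and with log2 transcript length by r = −0.43 in siCTR replicate 2. These are correlations across genes, which are not independent replicates.

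The comparison of siLSD1 with siCTR asks whether the RNA of the sensing and interferon genes changed with LSD1 knockdown. No tested gene of the list rose or fell at an adjusted p under 0.05 (edgeR, quasi-likelihood, adjusted by Benjamini-Hochberg over all genes), and the lowest adjusted p was 0.174, for OAS3. Across all tested genes, 1.07% were called higher and 0.371% lower by that rule, 1.44% in all. At an unadjusted p under 0.05, 3 genes of the list were higher (TLR3, ISG20 and OAS3) and 2 were lower (IFNAR2 and DICER1), where the rule called 7.48% of all tested genes higher and 6.55% lower. These counts are 6.52% and 4.35% of the list, both under the background, and the 5 genes together are 10.9% of the list against 14% of all genes. In the second counting of the same libraries the 5 lower members were 10.6% of those tested, above the 6.66% of all genes called lower there. Without siCTR replicate 3 the count of higher members was 1, which is 2.13% of those tested, against 6.1% of all genes. The count of lower members was 1 without siCTR replicate 1, siCTR replicate 2 or siLSD1 replicate 2. These are 2.17%, 2.13% and 2.17% of the members tested, against 6.58%, 5.69% and 3.79% of all genes. With the libraries corrected for GC content and transcript length, 2 members passed an adjusted p of 0.05, OAS3 higher and DICER1 lower, which is 4.35% of the list where that fit called 7.39% of all tested genes. By DESeq2 and by limma-voom the number with an adjusted p under 0.05 was 0, as in the reported fit, and 4 and 6 members had an unadjusted p under 0.05 (8.7% and 13% of the list, against 13.2% and 14.3% of all tested genes). Among 16 alternative fits, the unadjusted p was under 0.05 in 16 for OAS3, 14 for IFNAR2, 13 for TLR3, 13 for ISG20 and 12 for DICER1.

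The estimates lay close to 0 on the log2 scale. The median log2 fold change was −0.06 over the 46 members and −0.01 over all tested genes, with 14 members above 0 and 32 below. The median of the members ran from −0.10 to −0.03 with 1 library left out, the lowest on omitting siCTR replicate 1 and the highest on omitting siCTR replicate 3. The 95% interval of the log2 fold change lay within −1 and 1 for 40 of the 46 members (87%), and for 89.5% of all tested genes. Its upper bound was below 1 for 43 members and below 0.5 for 38, so that a larger rise of these genes lay outside their intervals. By role, the median log2 fold change was −0.04 for sensors, −0.05 for adaptors and kinases, −0.13 for the enzymes of RNA editing, RNA interference and nucleotide control, −0.07 for receptors, −0.18 for transcription factors and −0.08 for induced effectors. With 1 library left out, the sensor median was lowest at −0.12 (siCTR replicate 1 omitted) and highest at 0.01 (siCTR replicate 3 omitted), and that of adaptors and kinases lay between −0.10 (siCTR replicate 2 omitted) and 0.05 (siCTR replicate 1 omitted). The enzymes reached −0.18 when siCTR replicate 2 was omitted and −0.06 when siCTR replicate 1 was. For receptors the extremes were −0.12 and −0.04, on omitting siCTR replicate 2 and siCTR replicate 3. Effectors had −0.13 with siCTR replicate 1 omitted and −0.03 with siCTR replicate 3 omitted, and transcription factors stayed between −0.21 and −0.13. The medians of sensors and of adaptors and kinases thus changed sign with the library left out.

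**Figure D1:**
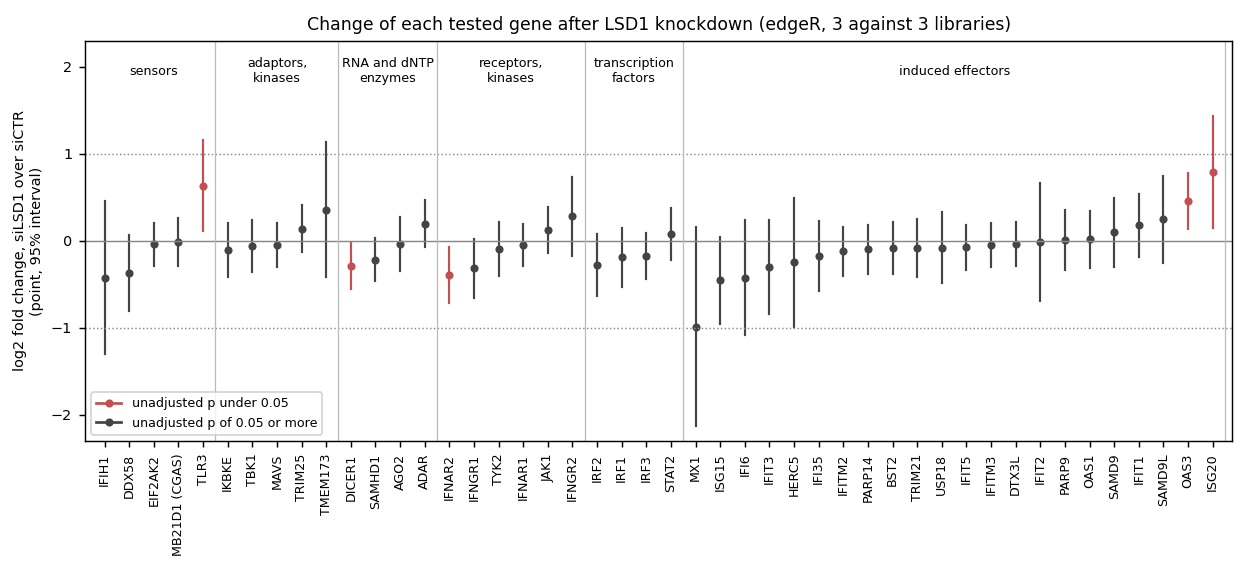
The log2 fold change of siLSD1 over siCTR for each of the 46 tested genes (point) with its 95% interval (line), ordered by role, with dotted lines at −1 and 1. The 5 genes with an unadjusted p under 0.05 are in red, and the widest intervals belong to genes with few reads such as MX1 and IFIH1.

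Basal levels spanned a wide range, compared here by the deposited FPKM, which is scaled to gene length, as means of the 6 libraries. Among effectors, BST2 (tetherin, which holds budding viruses at the cell surface) was at 214 FPKM, IFITM3 at 137 FPKM and IFITM2 at 82.8 FPKM, and the latter pair encode membrane proteins that hinder viral entry. The values of each gene in the 6 libraries did not reach those of the next gene in this order. Much lower were IFIT1 at 1.74 FPKM, ISG20 at 0.811 FPKM and MX1 at 0.170 FPKM. Sensors also differed, with EIF2AK2 at 16.3 FPKM and MB21D1 at 11.4 FPKM against IFIH1 at 0.275 FPKM. The DNA sensor was therefore present at the RNA level, whereas its adaptor TMEM173 was at 0.622 FPKM. IFITM genes are close copies of each other, and how the counting treated reads shared between them is not stated.

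Among the sensors, TLR3 had the largest estimate. It is an endosomal receptor for paired-strand RNA, encoded on chromosome 4 (186068911 to 186088073, + strand). TLR3 was at 3.47, 2.80 and 2.97 CPM in the siCTR libraries and at 3.95, 4.41 and 6.01 CPM in the siLSD1 libraries. Every siLSD1 library lay above every siCTR library, and siLSD1 replicate 3 was the highest. The estimate was 0.64 on the log2 scale (standard error 0.24, 95% interval 0.11 to 1.16), with an unadjusted p of 0.0206 and an adjusted p of 0.250 (edgeR with Benjamini-Hochberg adjustment). It ranged from 0.44 without siLSD1 replicate 3 to 0.76 with another library left out.

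The cytosolic RNA helicases had lower means in siLSD1, with overlapping libraries. DDX58 was at 9.32, 7.40 and 8.55 CPM in siCTR and at 5.44, 8.26 and 5.86 CPM in siLSD1, which is −0.37 on the log2 scale (95% interval −0.81 to 0.07). Only siLSD1 replicate 2 reached the siCTR range, and the estimate was −0.57 when it was omitted. IFIH1 had 21, 21 and 10 reads in siCTR and 12, 10 and 17 reads in siLSD1, so its interval of −1.30 to 0.46 on the log2 scale was wide. EIF2AK2, which encodes the kinase PKR that halts translation upon binding paired-strand RNA, was at 169, 157 and 185 CPM in siCTR and 154, 162 and 180 CPM in siLSD1. The estimate was −0.04 on the log2 scale, between −0.29 and 0.20. MB21D1 had 468, 609 and 588 reads in siCTR and 562, 526 and 568 reads in siLSD1, for a log2 fold change of −0.01 and an interval of −0.29 to 0.27. The siLSD1 libraries of this DNA sensor thus lay within the siCTR range.

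The adaptors and kinases had no member with an unadjusted p under 0.05, and the groups overlapped for all 5. MAVS, the mitochondrial adaptor of RIG-I and MDA5, was at 151, 124 and 125 CPM in siCTR and 135, 126 and 127 CPM in siLSD1. Its log2 fold change was −0.05 (95% interval −0.30 to 0.20). TMEM173 had 11, 12 and 15 reads in siCTR and 16, 13 and 20 reads in siLSD1, giving a log2 fold change of 0.36 and an interval of −0.42 to 1.13. The estimate was 0.21 when siLSD1 replicate 3 was omitted. TBK1, IKBKE and TRIM25, the last a ubiquitin ligase that activates RIG-I, had log2 fold changes of −0.06, −0.10 and 0.14.

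The enzymes that edit or cleave paired-strand RNA included DICER1, which cuts microRNA precursors, on chromosome 14 (95086228 to 95158010, − strand). DICER1 was at 133, 110 and 142 CPM in siCTR and 98.1, 102 and 115 CPM in siLSD1. Only siCTR replicate 2 lay within the siLSD1 range. The difference was −0.29 on the log2 scale (standard error 0.12, 95% interval −0.55 to −0.02), the unadjusted p was 0.0366 and the adjusted p 0.311 (edgeR with Benjamini-Hochberg adjustment). With the libraries corrected for GC content and transcript length, the log2 fold change was −0.36 and the adjusted p 0.00694 (edgeR with Benjamini-Hochberg adjustment), a fit that called 2.91% of all tested genes lower. AGO2, the Argonaute that carries small RNAs to their targets, was at 244, 159 and 220 CPM in siCTR and 204, 201 and 205 CPM in siLSD1, giving a log2 fold change of −0.03 (95% interval −0.34 to 0.27). The siCTR libraries of AGO2 spread more widely than the siLSD1 libraries, all of which lay between the lowest and the middle siCTR value. ADAR, which deaminates adenosines in paired RNA, was at 511, 383 and 502 CPM in siCTR and 513, 543 and 541 CPM in siLSD1. Its groups did not overlap, but siCTR replicate 1 and siLSD1 replicate 1 nearly touched, and the log2 fold change was 0.20 with an interval of −0.08 to 0.47. Without siCTR replicate 2 it was 0.08. SAMHD1, a phosphohydrolase that depletes nucleotides, was at 45.4, 47.9 and 43.5 CPM in siCTR and 37.8, 39.6 and 40.3 CPM in siLSD1. All 3 siLSD1 libraries lay below all siCTR libraries, with a log2 fold change of −0.22 and an interval of −0.46 to 0.03.

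Of the receptor genes, IFNAR2, which encodes a chain of the type I interferon receptor on chromosome 21 (33205282 to 33265675, + strand), was at 17.5, 22.9 and 18.9 CPM in siCTR and 16.0, 14.2 and 14.9 CPM in siLSD1. All siLSD1 libraries were below all siCTR libraries. The estimate was −0.39 on the log2 scale (standard error 0.15, 95% interval −0.71 to −0.07), with an unadjusted p of 0.0204 and an adjusted p of 0.248 (edgeR with Benjamini-Hochberg adjustment). Its partner chain IFNAR1 was at 79.7, 89.5 and 88.2 CPM in siCTR and 77.2, 83.7 and 87.5 CPM in siLSD1, giving a log2 fold change of −0.05 and an interval of −0.29 to 0.19. For the interferon gamma receptor, IFNGR1 was at 15.4, 14.5 and 15.1 CPM in siCTR and 10.7, 11.3 and 14.2 CPM in siLSD1. These groups did not overlap, and the log2 fold change was −0.32 (95% interval −0.65 to 0.02). The other chain, IFNGR2, had a log2 fold change of 0.28, also with an interval that included 0. The receptor kinase JAK1 was at 233, 201 and 248 CPM in siCTR and 222, 243 and 278 CPM in siLSD1, giving a log2 fold change of 0.12 (95% interval −0.14 to 0.39), and TYK2 had −0.09. Without siLSD1 replicate 3 the JAK1 estimate was 0.03, and without siCTR replicate 2 it was 0.05. Both kinases had overlapping groups.

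The transcription factors held no member with an unadjusted p under 0.05. IRF1, an activator induced early by interferon, was at 11.1, 11.8 and 10.1 CPM in siCTR and 9.76, 10.1 and 9.04 CPM in siLSD1. For IRF2, which binds the same sites and often acts against IRF1, the libraries held 124, 129 and 150 reads in siCTR and 103, 115 and 114 reads in siLSD1. In both genes each siLSD1 library lay below each siCTR library in CPM, for IRF1 by a margin that is not visible after rounding. The log2 fold changes were −0.19 (95% interval −0.52 to 0.15) and −0.28 (95% interval −0.63 to 0.07). IRF3 was at 48.6, 52.1 and 47.6 CPM in siCTR and 48.5, 40.5 and 42.4 CPM in siLSD1, giving a log2 fold change of −0.17 and an interval of −0.43 to 0.09. STAT2 was at 47.4, 37.8 and 40.1 CPM in siCTR and 50.2, 37.9 and 44.4 CPM in siLSD1, giving a log2 fold change of 0.08 and an interval of −0.22 to 0.38. The groups of IRF3 and STAT2 overlapped. IRF7, the factor that amplifies interferon production, had at most 2 reads in any library and was not tested.

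The induced effectors are the usual readout of an interferon response, and 22 of the 30 were tested, 7 with an estimate above 0 and 15 below. Of these, 2 (9.09%) were higher at an unadjusted p under 0.05, near the 7.48% of all tested genes that the rule called higher. The count of lower effectors was 0, where the rule called 6.55% of all tested genes lower. Without siCTR replicate 3 the counts were 1 higher (4.55%, against 6.1% of all genes) and 2 lower (9.09%, against 6.05%). Without siLSD1 replicate 2 they were 1 higher (4.55%, against 5.07%) and 0 lower (against 3.79%). By DESeq2 they were 1 higher (4.55%, against 7.04%) and 0 lower (against 6.13%). The count of lower effectors was 1 (4.55%) by limma-voom, with no filter, with the second counting and without siLSD1 replicate 1. In these fits 6.6%, 5.94%, 6.66% and 7.43% of all genes were called lower. OAS3 makes the short oligoadenylates that activate RNase L and lies on chromosome 12 (112938051 to 112976460, + strand). OAS3 was at 129, 89.6 and 137 CPM in siCTR and 156, 158 and 175 CPM in siLSD1. Every siLSD1 library was above every siCTR library, and siCTR replicate 2 was the lowest. This was 0.46 on the log2 scale (standard error 0.15, 95% interval 0.14 to 0.78), with an unadjusted p of 0.00858 and an adjusted p of 0.174 (edgeR with Benjamini-Hochberg adjustment). Without siCTR replicate 2 it was 0.29, and after correction for GC content and transcript length it was 0.37 with an adjusted p of 0.0304 (edgeR with Benjamini-Hochberg adjustment), in a fit that called 4.48% of all tested genes higher. ISG20, an exonuclease of single-stranded RNA on chromosome 15 (88635670 to 88656483, + strand), had 18, 17 and 15 reads in siCTR and 28, 29 and 30 reads in siLSD1. Each siLSD1 library lay above each siCTR library, at low counts. The log2 fold change was 0.79 (standard error 0.30, 95% interval 0.15 to 1.43), with an unadjusted p of 0.0183 and an adjusted p of 0.238 (edgeR with Benjamini-Hochberg adjustment). Without siCTR replicate 3 the unadjusted p of ISG20 was 0.0716 (edgeR).

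ISG15, MX1 and IFI6, effectors often used as markers of an interferon response, had estimates below 0 with intervals that included 0. ISG15, a ubiquitin-like modifier, had 145, 179 and 133 reads in siCTR and 152, 106 and 77 reads in siLSD1, giving a log2 fold change of −0.45 (95% interval −0.95 to 0.05). Its transcript has a GC content of 63.4%, the lowest library was siLSD1 replicate 3, and the estimate was −0.24 after correction for GC content and transcript length and −0.23 without that library, but −0.72 without siLSD1 replicate 1. MX1, a dynamin-like GTPase that traps viral particles, had 11, 10 and 15 reads in siCTR and 8, 8 and 2 reads in siLSD1. Its log2 fold change of −0.98 had an interval of −2.13 to 0.16 and was −0.56 without siLSD1 replicate 3, and it reached −1.27 without siLSD1 replicate 2. IFI6 was at 5.01, 6.85 and 3.27 CPM in siCTR and 5.14, 3.53 and 2.59 CPM in siLSD1, giving a log2 fold change of −0.42 (95% interval −1.09 to 0.24) that ranged from −0.72 without siLSD1 replicate 1 to −0.14 without siCTR replicate 2. In ISG15 and IFI6 the groups overlapped, and in MX1 they did not.

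The IFIT genes encode proteins that bind viral RNA ends. IFIT1 was at 7.70, 6.85 and 8.03 CPM in siCTR and 8.27, 8.26 and 9.04 CPM in siLSD1. The libraries of the groups did not overlap, with a log2 fold change of 0.18 (95% interval −0.18 to 0.54). IFIT2 was at 3.16, 3.82 and 4.39 CPM in siCTR and 1.94, 5.06 and 4.30 CPM in siLSD1, and its log2 fold change of −0.01 became 0.30 without siLSD1 replicate 1. IFIT3 was at 4.47, 5.61 and 8.18 CPM in siCTR and 4.32, 4.41 and 6.08 CPM in siLSD1, giving a log2 fold change of −0.30 that was −0.03 without siCTR replicate 3. The IFIT genes, which lie side by side on chromosome 10, therefore had estimates on both sides of 0. OAS1 was at 15.6, 12.7 and 14.2 CPM in siCTR and 13.4, 13.5 and 16.1 CPM in siLSD1, giving a log2 fold change of 0.02 (95% interval −0.31 to 0.35). The OAS1 groups overlapped.

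The effectors with the highest basal levels had narrow intervals. BST2 was at 190, 268 and 216 CPM in siCTR and 212, 234 and 190 CPM in siLSD1, giving a log2 fold change of −0.08 (95% interval −0.38 to 0.21), and IFITM3 was at 176, 185 and 146 CPM in siCTR and 172, 163 and 155 CPM in siLSD1, giving a log2 fold change of −0.05 (95% interval −0.30 to 0.21). Both changed sign to 0.04 and 0.09 after correction for GC content and transcript length. The remaining tested effectors are IFITM2, IFI35, IFIT5, USP18, HERC5, SAMD9, SAMD9L, PARP9, PARP14, DTX3L and TRIM21. Their log2 fold changes ran from −0.25 for HERC5 to 0.25 for SAMD9L, and all their groups overlapped.

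Over the whole list, 5 members had siLSD1 libraries that were all higher than the siCTR libraries (TLR3, ADAR, ISG20, IFIT1 and OAS3) and 6 had libraries that were all lower (IRF1, IRF2, IFNAR2, IFNGR1, MX1 and SAMHD1). These are 10.9% and 13% of the tested members, where 11.4% of all tested genes were separated upward and 9.97% downward, and 23.9% against 21.4% in either direction. The shares of the list were thus near those of all genes.

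**Figure D2:**
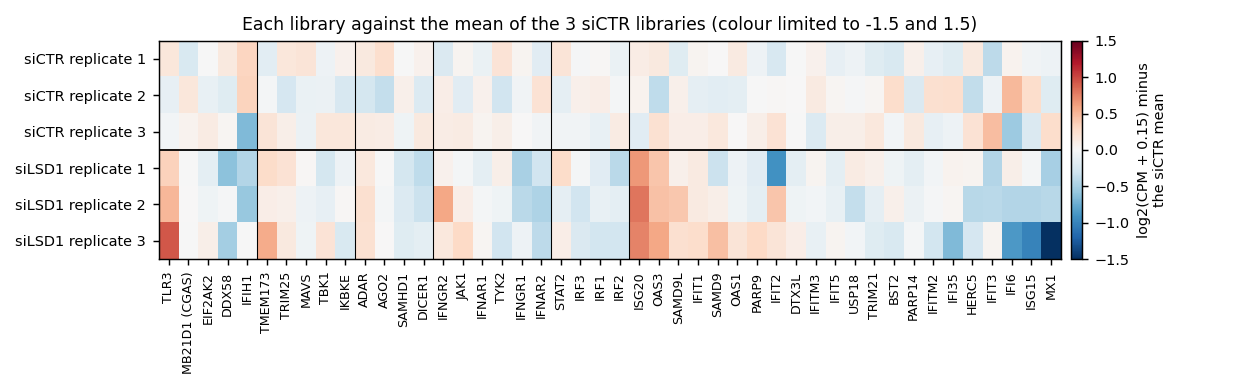
Each tested gene (columns, by role) in each library (rows) as log2(CPM + 0.15) minus the mean of the siCTR libraries, red for higher and blue for lower. ISG20, TLR3 and OAS3 are red in all 3 siLSD1 libraries, while ISG15, IFI6 and MX1 are darkest blue in siLSD1 replicate 3.

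The ISRE is the site through which most induced effectors respond, and its core was searched, on both strands, as GAAA followed by any 2 bases and GAAA again, in the RefSeq promoter window, which runs from 250 bases before to 50 bases after a gene's start (GRCh38.p14). Of 57 members, 44 had a window, and 22 of these held at least 1 core, which is 50% against 3.65% of all 27305 promoters. The core was in 19 of 25 windows of induced effectors and in 3 of 19 windows of the other members, namely IFIH1, TLR3 and EIF2AK2. The windows below show cores, in capitals, with up to 12 bases on either side, for the 2 effectors that were higher at an unadjusted p under 0.05 and for 4 effectors whose interval included 0. They are given 5′ to 3′ on the strand of the gene.
ISG20: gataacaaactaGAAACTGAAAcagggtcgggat
OAS3: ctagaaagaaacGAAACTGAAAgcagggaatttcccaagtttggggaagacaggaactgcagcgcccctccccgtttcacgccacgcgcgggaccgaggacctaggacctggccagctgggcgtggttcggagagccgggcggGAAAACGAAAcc
ISG15: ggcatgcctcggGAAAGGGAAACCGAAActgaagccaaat
IFIT1: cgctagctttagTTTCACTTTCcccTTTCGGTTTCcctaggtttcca
IFI6: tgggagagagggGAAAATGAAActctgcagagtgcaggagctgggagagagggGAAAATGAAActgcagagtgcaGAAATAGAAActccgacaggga
BST2: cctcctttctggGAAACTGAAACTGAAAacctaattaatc
The windows lie at chr15:88638935-88638968 (+) for ISG20, chr12:112938319-112938473 (+) for OAS3, chr1:1013372-1013411 (+) for ISG15, chr10:89392495-89392541 (+) for IFIT1, chr1:27672264-27672360 (−) for IFI6 and chr19:17405733-17405772 (−) for BST2. In IFIT1 the cores are on the opposite strand, and in ISG15 and BST2 a pair of cores overlap by 4 bases.

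The genes with these cores did not share a direction. Of the 18 tested members with an ISRE core, 5 had a log2 fold change above 0, and the values ran from −0.98 for MX1 to 0.79 for ISG20, with a median of −0.08. The median of the 19 tested members with a window and no core was −0.05. TLR3, ISG20 and OAS3, the members that were higher at an unadjusted p under 0.05, all held at least 1 core, and so did ISG15, IFI6 and MX1. The gamma-activated site, searched as TTCNNNGAA, was in 9 of 44 member windows (20.5%) and in 7.88% of all promoters. The 6 tested members with this site had a median log2 fold change of −0.09. A match to either set of letters is a description of the window and does not show that a factor binds there.

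**Figure D3:**
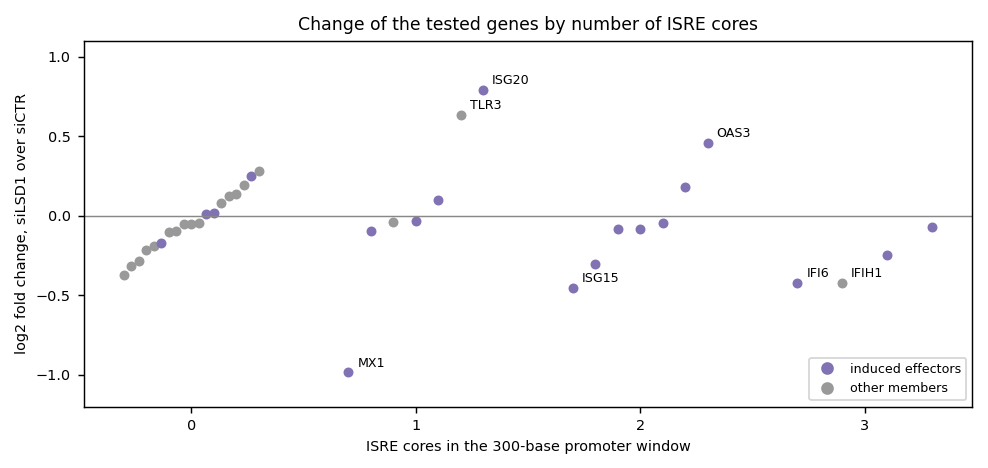
The log2 fold change of the tested members with a promoter window (points), by the number of ISRE cores in the window, violet for induced effectors and grey for other members. Genes with 1 or more cores lie on both sides of 0, from MX1 at −0.98 to ISG20 at 0.79.

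Some members could not be compared. DHX58, IRF7, IFITM1, OAS2, OASL and HERC6 had a row but too few reads for the test, with at most 13 reads in any library (IFITM1). OAS2 had 0, 1 and 1 reads in siCTR and 1, 0 and 0 reads in siLSD1. IRF9, IFI27, IFI44, IFI44L and XAF1 were not analysed here, since no row of the table carried their names.

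A further list of 62 genes of the same pathways that are not members was counted in the same fit, and 38 of its 51 rows were tested. None of them had an adjusted p under 0.05 (edgeR with Benjamini-Hochberg adjustment), the lowest being 0.132 for PARP12, named here after its values were seen, as is IFNB1. At an unadjusted p under 0.05, 2 of the 38 (5.26%) were higher and 5 (13.2%) were lower, where the rule called 7.48% of all tested genes higher and 6.55% lower. The list's median log2 fold change was −0.06. The interferon beta gene IFNB1 had 0 reads in 5 libraries and 1 read in siLSD1 replicate 1, so a change of this gene was not detectable at this depth.

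**Figure D4:**
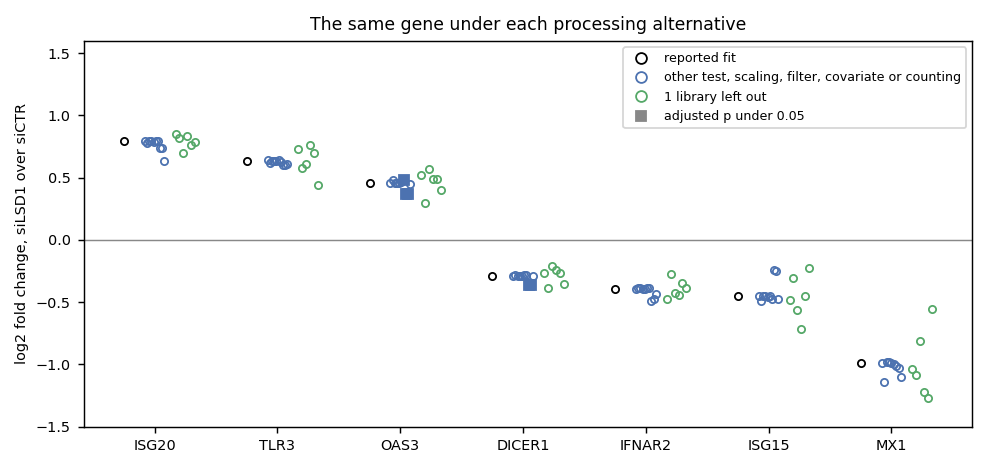
Log2 fold changes of 7 members in the reported fit (black), with another test, scaling, filter, covariate or counting (blue), and with 1 library left out (green), where filled squares have an adjusted p under 0.05. Only OAS3 and DICER1 pass in any of the alternatives shown, and MX1 and ISG15 spread most when a library is left out.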

How the data were processed

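Total RNA of 3 siCTR and 3 siLSD1 libraries of U2OS cells was compared. Reads were aligned by the authors with STAR. The deposited counts are whole reads per gene without normalization, and the deposited FPKM values equal these counts scaled to gene length and to each library's counted reads. Genome build, annotation, counter and strand setting are not given in the sources used here. Columns of the authors' own comparison (fold changes and p-values) were not used. Tables for pairs of libraries hold a second, higher counting of the same libraries (median ratio 1.11) and served as an alternative.

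The counts were fitted with edgeR 4.0.16 (R 4.3.3), using the quasi-likelihood test without covariates after TMM scaling and a filter by filterByExpr at a minimum count of 10. P-values were adjusted by Benjamini-Hochberg over 11844 genes. Standard errors come from the fitted model. CPM values are TMM-scaled. DESeq2 1.42.0 and limma 3.58.1 (voom) were alternatives, beside other scalings and filters, the replicate number as a block, omission of single libraries, and a lowess correction (span 0.3) for GC content and length of the longest GENCODE release 44 transcript. Gene coordinates are those of GENCODE on GRCh38 and not the authors'. The procedure was tested on simulated counts. These held no trend in GC content or length and no library that stood apart. The test therefore does not cover those features of the real libraries. Other steps ran in Python 3.11.15 (numpy 2.4.6; pandas 2.3.3; scipy 1.17.1).

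All 6 libraries were kept. Between any pair of them, chi-square per degree of freedom was above sampling noise, so no library was a copy of another. It was 22.6 to 39.1 in the 5 pairs with siCTR replicate 2, which stood apart, and 6.48 to 24.3 in the other 10. Depth was 12513511 to 13561344 reads, and the biological coefficient of variation was 12.6%. The members, roles and lists were chosen with earlier results of these data known. Values in every library are given for tested members with an unadjusted p under 0.05 or with groups that do not overlap, and, whatever their values, for a set of members listed by role in the analysis plan.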

Additional observations from a re-analysis of the deposited data

How the results depend on the processing

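Among 30 named members and 16 alternatives, 479 estimates were made, of which 454 kept their direction and their side of an adjusted p of 0.05, 20 changed sign and 5 passed that threshold (OAS3 in 3 fits, DICER1 in 2). KDM1A kept its call in all of them. Counts of members with an unadjusted p under 0.05, 3 higher and 2 lower in the reported fit, became 4 lower with the replicate block, 4 with the correction for GC content and length, 5 with both and 5 with the second counting, which are 8.7%, 8.7%, 10.9% and 10.6% of the members tested, against 11.2%, 11.9%, 14% and 6.66% of all genes. With the block, the lower effectors went from 0 (against 6.55% of all genes) to 1 (4.55%, against 11.2%). With 1 library left out, the member counts ranged from 1 to 3 higher and from 1 to 3 lower. These were 2.13% to 6.52% and 2.13% to 6.38% of the members tested, against 5.07% to 7.72% and 3.79% to 7.43% of all genes. Of the 30 named members, 22 had an estimate that moved by over 1.5 times when some library was left out, 9 of them with a change of sign. Among those not given in the report, IRF3 ranged from −0.25 to −0.11, IFIT1 from 0.12 to 0.23, IFNAR1 from −0.10 to −0.0035 and IFIH1 from −0.71 to −0.24. The adjusted count, 0 in each direction, became 1 higher with the replicate block, and 1 higher and 1 lower with the correction for GC content and length, alone or with the block. Each of these is 2.17% of the members tested. Of all genes, 4.13% were called higher with the block, 4.48% higher and 2.91% lower with the correction, and 6.16% higher and 4.89% lower with both. The receptor median of −0.07 was −0.12 without siCTR replicate 2, the lowest value with 1 library left out, and −0.0449 at the highest. The direction of the estimate turned in these cases: with the correction for GC content and length, alone or with the block, IFITM3 was at 0.0878 and 0.087, BST2 at 0.0405 and 0.0416 and OAS1 at −0.0416 and −0.0394. With 1 library left out, the range was −0.10 to 0.0517 for MAVS, −0.11 to 0.0211 for EIF2AK2, −0.12 to 0.0786 for MB21D1, −0.0212 to 0.19 for STAT2, −0.27 to 0.30 for IFIT2, −0.15 to 0.0236 for IFITM3, −0.0726 to 0.0898 for OAS1, −0.19 to 0.0647 for BST2 and −0.19 to 0.10 for AGO2. The cause of these changes was not tested.

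Over all genes, 171 had an adjusted p under 0.05 in the reported fit, 323 with DESeq2, 290 with no filter, 897 with the replicate block, 869 with the correction for GC content and length, 1300 with both, and 58 to 136 with 1 library left out. At an unadjusted p under 0.05 they were 1662, 2546 with the block, 2854 with the correction and 3306 with both, and 1061 without siLSD1 replicate 2. The replicate numbers were not taken as pairs. Libraries with the same number deviated from their group means with r = 0.33, 0.07 and 0.31, and each correlated best with its own number, which is a hint from the data. The correlation with GC content also went by number. In siCTR and siLSD1 it was 0.39 and 0.48 for replicate 1, −0.02 and 0.02 for replicate 2, and −0.15 and −0.57 for replicate 3. Whether the hint is more than this shared trend was not tested. The deposited tables for pairs of libraries also set equal numbers side by side, but no label says that a number marks a shared culture, batch or day. With the replicate block the adjusted p of OAS3 was 0.00305 (edgeR with Benjamini-Hochberg adjustment). Depth limits the genes with few reads, such as IFIH1, TMEM173 and MX1, whose intervals reach beyond 1 or −1 on the log2 scale. How reads shared by the IFITM genes, or by genes on opposite strands, were counted is not stated.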
